A study of Mus musculus with 16 samples.

Results

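The genes described here are 9 transcripts of neutrophils and infiltrating monocytes, the white blood cells that enter the brain from the blood after an ischaemic stroke: S100a8, S100a9, Ngp, Cxcr2, Ccr2, Plac8, Clec4d, Clec4e and Trem1. They were measured in whole brain of male mice aged 8 weeks with Affymetrix Mouse Gene 1.0 ST arrays. Each of the 9 genes had 1 probe set whose only annotated symbol was that gene, out of 19938 genes measured that way. The 16 arrays form 4 groups of 4: mice labelled TNF knockout 24 h after experimental stroke by pMCAO (a middle cerebral artery closed permanently), naive mice labelled TNF knockout, C57BL/6 mice 24 h after pMCAO, and naive C57BL/6 mice. There is no sham-operated group here, so effects of surgery and of the closed artery cannot be told apart. The labels number the arrays as replicates without saying that each came from a separate animal, so p-values measure only the spread between these samples, which may be technical.

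Neutrophils are short-lived phagocytes that leave the bone marrow, follow CXC chemokines through the receptor CXCR2 and carry S100A8 and S100A9 as abundant cytosolic proteins. Inflammatory monocytes follow CC chemokines through CCR2 and become macrophages in the tissue. CLEC4D and CLEC4E are C-type lectin receptors of myeloid cells that signal through the adaptor Fcer1g, and TREM1 is a receptor that amplifies inflammatory signals in neutrophils and monocytes through the adaptor Tyrobp. Activated macrophages of the brain can also express the lectin receptors, so these transcripts are not exclusive to cells from the blood.

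Values are log2 summaries, differences are log2 differences with the standard error (SE) from limma, and a call means an adjusted p under 0.05 over all 19938 genes. The array medians over these genes were 6.35 to 6.43, and all 144 readings of the 9 genes lay below the median of their own array, between 2.87 and 5.44. No detection p-values were used here, so it is not known which of these readings were above background, and the number of arrays limits the precision. Snap25, a synaptic gene, read 12.1 to 12.4 in all arrays, and the myelin gene Mbp read 10.3 to 10.8, so defining brain transcripts were present. Tnf, the targeted gene, read 6.60 to 6.99 after stroke and 6.14 to 6.58 in naive mice labelled TNF knockout, and 5.28 to 5.68 after stroke and 5.01 to 5.72 in naive C57BL/6 mice. It was thus higher in every array labelled TNF knockout, against that label. A probe set outside the deleted part of the gene would check nothing, and which part it covers is not known here. In whole tissue a change in the number of cells and a change in RNA per cell cannot be told apart.

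Averaged over both genotypes, 2 of the 9 genes rose after stroke: Clec4d by 0.75 ± 0.15 (limma, adjusted p = 0.0082) and Cxcr2 by 0.70 ± 0.15 (adjusted p = 0.015). These are 1.68-fold and 1.63-fold increases. Among all genes 1.78 percent were called higher in this comparison. Without adjustment, 5 of 9 were higher at a p under 0.05, against 8.64 percent of all genes. Of the 9 genes 8 had a difference above 0, against 48.9 percent of all genes, and their median difference was 0.28, against -0.0025 over all genes. Within a genotype, 0 of the 9 genes passed limma's threshold, in mice labelled TNF knockout (0.537 percent of all genes called higher) or in C57BL/6 mice (1.34 percent). At an unadjusted p under 0.05, 5 of 9 were higher in mice labelled TNF knockout, against 4.22 percent of all genes, and 4 of 9 in C57BL/6 mice, against 9.74 percent. Differences above 0 were found for 9 of 9 genes in mice labelled TNF knockout, against 49.3 percent of all genes, and for 7 of 9 in C57BL/6 mice, against 48.3 percent. The single-genotype comparisons share their arrays with the averaged one. The 9 genes were chosen with earlier results of these data known, and most pairs of them varied together across arrays. These counts therefore describe the 9 genes and are no test.

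**Figure D1:**
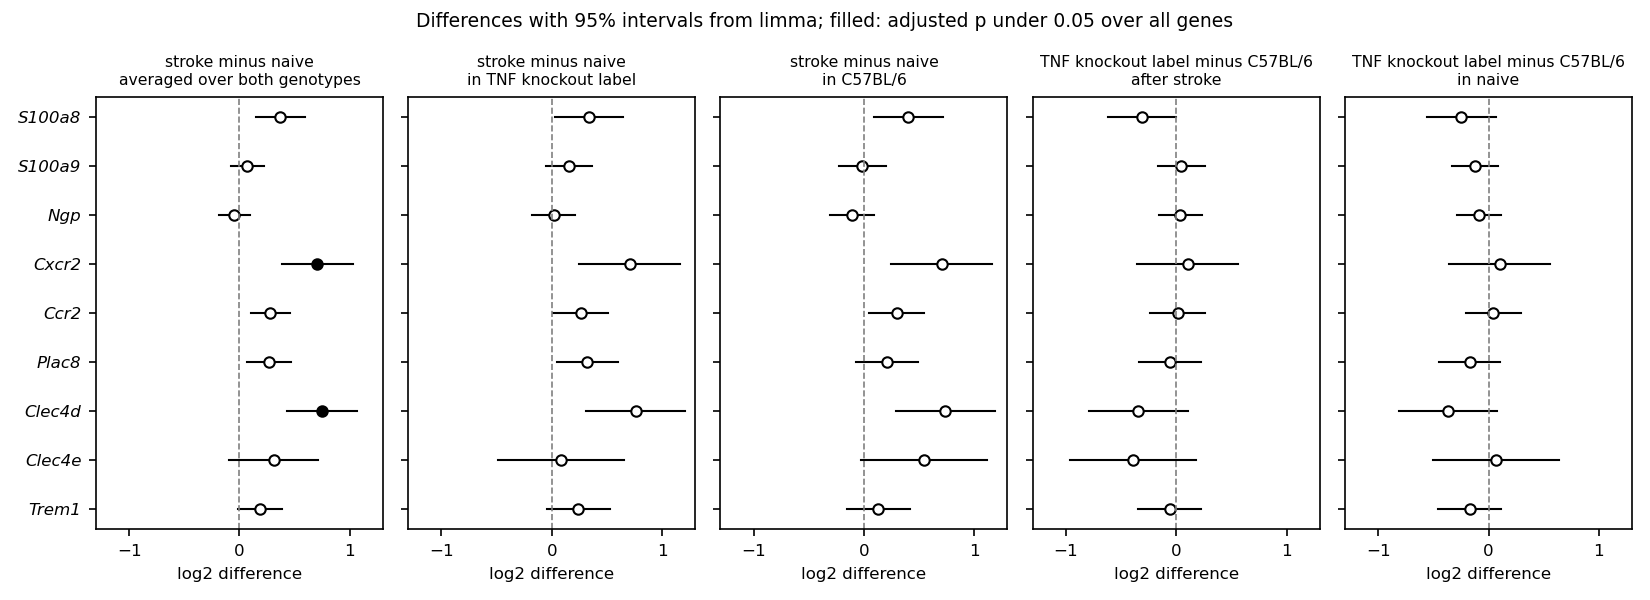
Log2 differences of the 9 genes (rows) in 5 comparisons (panels, x axes in log2 units) with 95 percent intervals from limma. Filled points, adjusted p under 0.05 over all genes, are only Clec4d and Cxcr2 in the average of stroke minus naive.

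The granule and cytosolic proteins of neutrophils come first. S100a8, which encodes a subunit of the calcium-binding complex calprotectin, read 3.94, 3.66, 3.83 and 3.98 in stroke arrays labelled TNF knockout, against 3.39, 3.62, 3.72 and 3.32 in naive arrays with that label. In C57BL/6 mice it read 4.18, 4.20, 4.57 and 3.69 after stroke, against 4.0, 3.49, 3.88 and 3.66 in naive mice. The groups overlapped in both genotypes, by a single pair of readings (3.66 after stroke and 3.72 naive) in mice labelled TNF knockout. The averaged difference was 0.37 ± 0.10 and missed the threshold (adjusted p = 0.064). It passed without C57BL/6 stroke array 4 (0.45, adjusted p = 0.0092), which read lowest of its group, and without naive C57BL/6 array 1 (0.41, adjusted p = 0.047).

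S100a9, the partner subunit of S100a8, read 5.08, 4.71, 4.61 and 5.02 after stroke in arrays labelled TNF knockout, against 4.60, 4.73, 4.78 and 4.69 in naive arrays. The C57BL/6 stroke arrays read 4.67, 4.83, 4.98 and 4.75, against 4.87, 4.91, 4.80 and 4.71 in naive C57BL/6 arrays. In mice labelled TNF knockout, stroke arrays 1 and 4 exceeded all naive arrays and the other two lay among them, while the C57BL/6 stroke arrays lay on both sides of the naive ones. The averaged difference of 0.07 ± 0.07 (adjusted p = 0.69) had a 95 percent interval from -0.08 to 0.22. S100a8 and S100a9 lie 22595 bases apart in GRCm38.p6 (chr3:90669071-90670034 and chr3:90692630-90695721) with 0 annotated genes between them. Their differences were not tested against each other.

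Ngp, a cathelicidin-related granule protein made while neutrophils mature in the bone marrow, read 3.29, 3.12, 3.34 and 3.17 after stroke in arrays labelled TNF knockout, against 3.11, 3.19, 3.28 and 3.27 in naive arrays. In C57BL/6 mice it read 3.49, 3.17, 2.99 and 3.12 after stroke, against 3.37, 3.30, 3.20 and 3.33 in naive mice. It was the only one of the 9 genes with an averaged difference below 0 (-0.04 ± 0.07, adjusted p = 0.80, 95 percent interval -0.18 to 0.09).

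Of the chemokine receptors, Cxcr2 read 4.47, 3.87, 3.84 and 3.40 after stroke in arrays labelled TNF knockout, against 3.09, 3.29, 3.15 and 3.22 in naive arrays. The C57BL/6 stroke arrays read 3.45, 3.82, 4.61 and 3.28, against 3.13, 3.14, 3.21 and 2.87 in naive C57BL/6 arrays. Every stroke array lay above every naive array of its genotype, as in 2.8 percent of all genes for mice labelled TNF knockout and 5.03 percent for C57BL/6. Over both genotypes together the groups overlapped, since 3.28 in C57BL/6 stroke array 4 was below 3.29 in a naive array labelled TNF knockout. The difference was 0.71 ± 0.22 in mice labelled TNF knockout (adjusted p = 0.25) and 0.70 ± 0.22 in C57BL/6 mice (adjusted p = 0.11). Without C57BL/6 stroke array 3 the C57BL/6 difference was 0.43 (adjusted p = 0.30).

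Ccr2 read 3.51, 3.31, 3.69 and 3.43 after stroke in arrays labelled TNF knockout, against 3.29, 3.10, 3.19 and 3.31 in naive arrays. In C57BL/6 mice it read 3.12, 3.82, 3.52 and 3.43 after stroke, against 3.11, 3.38, 3.08 and 3.14 in naive mice. The highest reading came from C57BL/6 stroke array 2, while C57BL/6 stroke array 1 lay among the naive arrays. The averaged difference was 0.28 ± 0.08 (adjusted p = 0.085). It passed without C57BL/6 stroke array 1 (0.34, adjusted p = 0.017) and with array weights (0.32, adjusted p = 0.029).

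Plac8, a cysteine-rich protein of monocytes and granulocytes, read 3.53, 3.37, 3.62 and 3.40 after stroke in arrays labelled TNF knockout, against 2.88, 3.17, 3.20 and 3.38 in naive arrays. The C57BL/6 stroke arrays read 3.46, 3.73, 3.86 and 3.10, against 3.16, 3.34, 3.37 and 3.44 in naive C57BL/6 arrays. In C57BL/6 stroke, 3 arrays exceeded all naive arrays and array 4 lay below all of them. The averaged difference was 0.27 ± 0.09 (adjusted p = 0.15), and 0.34 with adjusted p = 0.027 without that array.

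**Figure D2:**
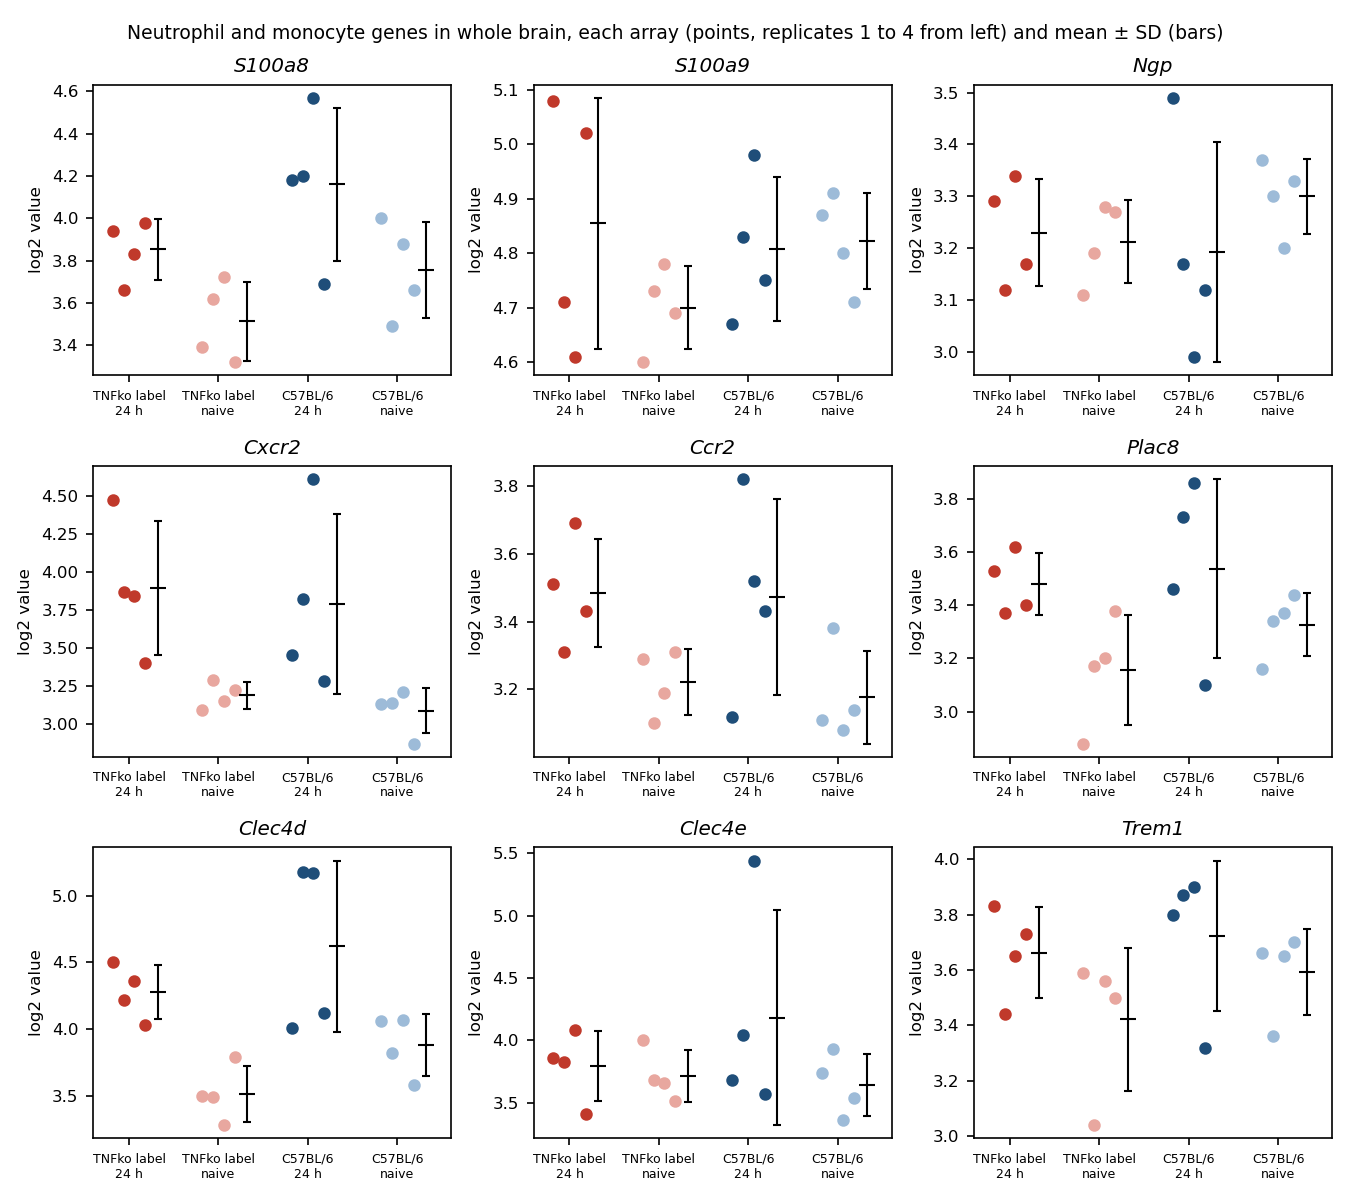
Log2 values of the 9 genes (1 panel each, y axes on different ranges) in every array of the 4 groups, with the mean and SD of 4 arrays beside the points. Cxcr2 is the only gene whose stroke points lie above all naive points of the same genotype in both genotypes, and the C57BL/6 stroke points of Clec4e spread from 3.57 to 5.44.

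Of the C-type lectin receptors, Clec4d rose in the averaged comparison and Clec4e did not pass. Clec4d read 4.50, 4.22, 4.36 and 4.03 after stroke in arrays labelled TNF knockout, against 3.50, 3.49, 3.28 and 3.79 in naive arrays, with no overlap. In C57BL/6 mice it read 4.01, 5.18, 5.17 and 4.12 after stroke, against 4.06, 3.82, 4.07 and 3.58 in naive mice. Arrays 2 and 3 of the C57BL/6 stroke group thus stood above all naive arrays, while arrays 1 and 4 lay close to the highest of them. The difference was 0.76 ± 0.21 in mice labelled TNF knockout (adjusted p = 0.17) and 0.74 ± 0.21 in C57BL/6 mice (adjusted p = 0.089). Without C57BL/6 stroke array 1 the C57BL/6 difference was 0.94 (adjusted p = 0.017). The averaged call of Clec4d, like that of Cxcr2, held in all 16 fits that left out 1 array, with differences of 0.66 to 0.85 for Clec4d and 0.57 to 0.79 for Cxcr2.

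Clec4e, also called Mincle, read 3.86, 3.83, 4.08 and 3.41 after stroke in arrays labelled TNF knockout, against 4.0, 3.68, 3.66 and 3.51 in naive arrays. The C57BL/6 stroke arrays read 3.68, 4.04, 5.44 and 3.57, against 3.74, 3.93, 3.36 and 3.54 in naive C57BL/6 arrays. The value of 5.44 in C57BL/6 stroke array 3 was the highest of all 144 readings. The C57BL/6 difference was 0.54 ± 0.27 (adjusted p = 0.32), and 0.12 (adjusted p = 0.78) without that array. The averaged difference of 0.31 ± 0.19 (adjusted p = 0.46) was 0.10 without it.

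Trem1 read 3.83, 3.44, 3.65 and 3.73 after stroke in arrays labelled TNF knockout, against 3.59, 3.04, 3.56 and 3.50 in naive arrays. In C57BL/6 mice it read 3.80, 3.87, 3.90 and 3.32 after stroke, against 3.66, 3.36, 3.65 and 3.70 in naive mice. In C57BL/6 stroke, arrays 1 to 3 exceeded all naive arrays and array 4 lay below all of them. Array 2 read lowest in both naive groups and stood apart from the other three. The averaged difference was 0.19 ± 0.10 (adjusted p = 0.36, 95 percent interval -0.02 to 0.39).

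Clec4d and Clec4e are neighbours on chromosome 6, 6520 bases apart with 0 annotated genes between them, and were read together with Cxcr2 for the sequence before their starts. These 3 are shown because Clec4d and Cxcr2 were the called genes, and because Cxcr2 with each lectin gene gave the highest correlations of array deviations described below. The 250 bases before the RefSeq start (GRCm38.p6) are written on the gene's strand, and capitals mark matches, on either strand, to GAGGAA, the core bound by the myeloid factor PU.1, or to TTGCNNAA, a C/EBP pattern.
Clec4d, chr6:123261857-123262106, plus strand: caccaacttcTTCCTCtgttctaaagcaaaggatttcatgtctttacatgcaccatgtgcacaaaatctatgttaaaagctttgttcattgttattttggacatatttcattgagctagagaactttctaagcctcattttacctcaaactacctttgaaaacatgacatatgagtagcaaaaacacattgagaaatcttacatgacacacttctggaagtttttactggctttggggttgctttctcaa
Clec4e, chr6:123289872-123290121, minus strand: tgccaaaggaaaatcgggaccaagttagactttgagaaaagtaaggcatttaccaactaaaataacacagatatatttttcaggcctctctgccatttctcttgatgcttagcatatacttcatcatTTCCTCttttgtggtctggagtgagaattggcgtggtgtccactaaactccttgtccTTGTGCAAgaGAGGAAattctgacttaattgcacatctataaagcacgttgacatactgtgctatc
Cxcr2, chr1:74153744-74153993, plus strand: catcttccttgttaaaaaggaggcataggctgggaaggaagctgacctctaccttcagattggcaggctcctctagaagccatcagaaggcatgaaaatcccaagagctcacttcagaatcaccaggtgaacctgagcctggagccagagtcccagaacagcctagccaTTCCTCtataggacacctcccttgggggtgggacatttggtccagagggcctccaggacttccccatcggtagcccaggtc
Clec4e holds 2 matches to the PU.1 core, at -123 to -118 and -56 to -51 from the start, and a C/EBP match at -66 to -59. Clec4d has 1 PU.1 match at -240 to -235 and Cxcr2 has 1 at -81 to -76.

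The other genes lie elsewhere in GRCm38.p6: Cxcr2 at chr1:74153994-74161246, Plac8 at chr5:100551589-100572253, Ngp at chr9:110419808-110423012, Ccr2 at chr9:124101918-124109140 and Trem1 at chr17:48232713-48246927. Over the 9 genes, which have 10 such windows because Plac8 has 2 starts, 6 windows held the PU.1 core, against 23.3 percent of all 32851 windows in the table. The C/EBP pattern was in 4 of 10 (S100a9, Clec4e, Plac8 and Ngp), against 9.56 percent. A core pattern of NF-kB and the AP-1 pattern TGANTCA were in 0 of 10, against 1.41 and 6.75 percent, and the STAT pattern TTCNNNGAA was in 1 of 10 (Trem1, directly before its PU.1 core), against 7.02 percent. A match describes letters in a window and shows no binding, and windows without a match say nothing about the factor.

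Between the genotypes, 0 of the 9 genes passed limma's threshold after stroke (0.436 percent of all genes called), in naive mice (0.386 percent) or for the difference of the stroke changes (0 percent). At an unadjusted p under 0.05 the counts were also 0 of 9, against 11.3, 16.6 and 7.42 percent of all genes. The differences of the stroke changes ran from -0.46 ± 0.39 for Clec4e to 0.17 ± 0.14 for S100a9. Without C57BL/6 stroke array 3 the value for Clec4e was -0.04, and without stroke array 1 labelled TNF knockout that for S100a9 was 0.09. Cxcr2 differed by 0.00 ± 0.31 (95 percent interval -0.64 to 0.65) and Clec4d by 0.02 ± 0.30 (-0.61 to 0.66), so changes of either sign of that size are within these intervals. After stroke S100a8 was -0.31 ± 0.15 in mice labelled TNF knockout relative to C57BL/6 (unadjusted p = 0.051, adjusted p = 0.45), and -0.17 without C57BL/6 stroke array 3 or -0.46 without C57BL/6 stroke array 4. Among markers of other cells in the same comparison, the myelin gene Cnp (-0.46, adjusted p = 0.0050) and the tight junction gene Cldn5 of endothelium (-0.54, adjusted p = 0.040) were lower in mice labelled TNF knockout. Of the oligodendrocyte markers 0 of 8 and of the endothelial markers 0 of 9 had a difference above 0, with medians of -0.36 and -0.22. For resident microglia markers it was 1 of 11 (median -0.21) and for astrocyte markers 1 of 9 (median -0.165). Neuron markers had 6 of 11 above 0 and choroid plexus markers 4 of 9. Among all genes 47.4 percent had a difference above 0. In naive mice 1 of 8 oligodendrocyte markers (median -0.26) and 4 of 9 endothelial markers (median -0.045) had a genotype difference above 0. There it was 7 of 11 for microglia (median 0.09), 5 of 9 for astrocytes, 8 of 11 for neurons and 6 of 9 for choroid plexus. The share of all genes in naive mice was 48.8 percent. The part of these cells in the values of the 9 genes was not tested. All C57BL/6 arrays carry the sample name prefix KL42 and no other array does, so genotype and prefix cannot be told apart.

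The arrays labelled TNF knockout carry the prefixes KL76 (stroke array 1 and naive arrays 1 to 3) and KL82 (stroke arrays 2 to 4 and naive array 4), whose meaning the labels do not give. Within KL76 and within KL82 the stroke differences were 1.29 and 0.48 for Cxcr2, 1.08 and 0.41 for Clec4d, 0.36 and 0.50 for S100a8, and 0.32 and 0.17 for Ccr2. They were 0.38 and 0.09 for S100a9, 0.45 and 0.08 for Plac8, 0.43 and 0.11 for Trem1, 0.08 and 0.26 for Clec4e, and 0.10 and -0.06 for Ngp. Each prefix holds 1 array of one of the conditions, so these values have no test. With the prefix as a term the averaged differences of Clec4d (0.74, adjusted p = 0.028) and Cxcr2 (0.80, adjusted p = 0.012) remained called.

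The spread within groups was widest in C57BL/6 mice after stroke. In 8 of the 9 genes this group had the largest SD of the 4 groups, against 34 percent of all genes. S100a9 was the exception, with its largest SD in stroke arrays labelled TNF knockout (0.23). The SD of Clec4e was 0.86 in C57BL/6 stroke, against 0.25 in naive C57BL/6 mice, and that of Clec4d was 0.64, against 0.23. Within that group array 3 was the highest of its group in 6 of the 9 genes and the highest of all 16 arrays in 5. Array 4 lay below the group mean in all 9, with a mean deviation of -0.34, against 0.40 for array 3. In the stroke group labelled TNF knockout array 1 lay above the group mean in all 9, by 0.16 on average. These orders were found in the data and were not tested.

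**Figure D3:**
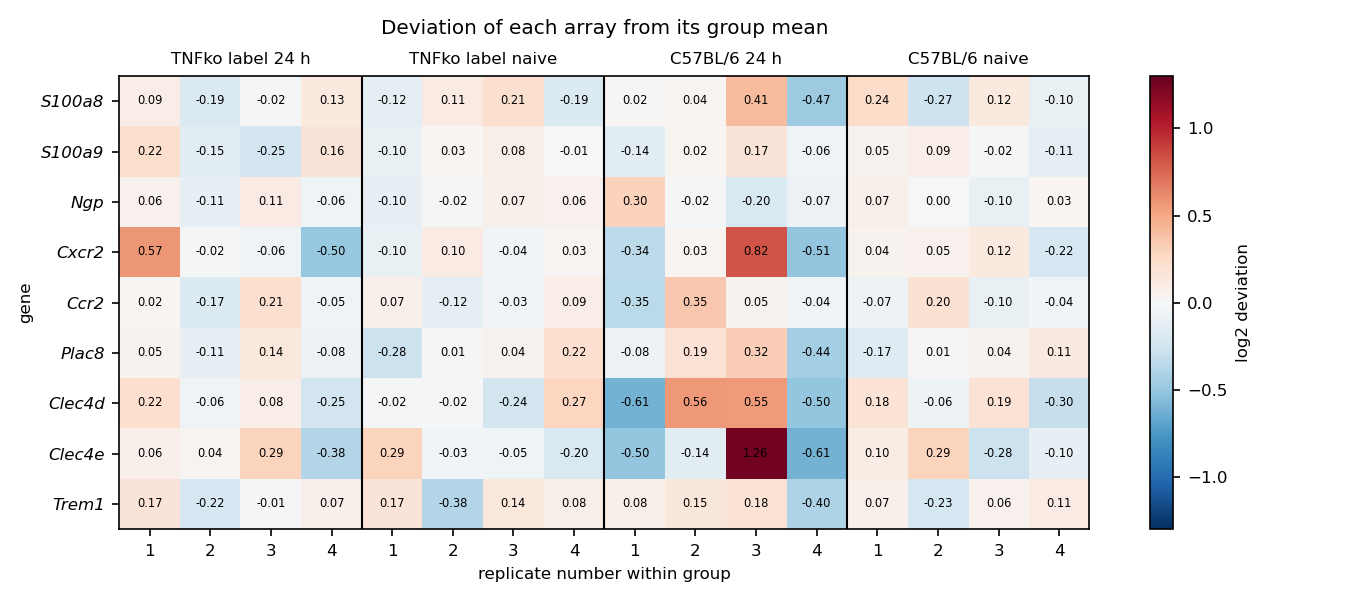
Deviation of each array (columns, by group and replicate number) from its group mean for the 9 genes (rows), in log2 units by colour and number. The widest deviations are in C57BL/6 stroke arrays, up to 1.26 for Clec4e in array 3.

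As a description, deviations from the group means were correlated between genes over the 16 arrays, which share 4 fitted group means. Of the 28 pairs without Ngp 27 had a positive Pearson r, with a median of 0.44. Of the 8 pairs with Ngp 2 did, with a median of -0.26. The highest values were 0.78 for Clec4e with Cxcr2 (Spearman's rho 0.52) and 0.76 for Clec4d with Cxcr2 (rho 0.73). Without the 2 arrays farthest from the median of the first gene these were 0.43 and 0.86, so the value for Clec4e rests in part on the 2 arrays left out there, C57BL/6 stroke arrays 3 and 4. S100a8 with S100a9 gave 0.47 (rho 0.52), and 0.39 without the 2 farthest arrays.

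Outside the 9 genes, the pattern closest to the mean of the scaled members over the 16 arrays was that of Cxcl2, a chemokine bound by CXCR2 (Pearson r = 0.92). Next came Il1rn, the interleukin-1 receptor antagonist (0.91), the matrix protease gene Mmp3 (0.87), the endotoxin co-receptor gene Cd14 (0.87) and Cybb, a subunit of the phagocyte oxidase (0.85). Acod1, Mmp12, Thbs1, Srgn and Myc completed the first 10, at 0.83 to 0.85. These values hold the stroke difference shared by the groups. For deviations from the group means the closest gene was Thbs1, which encodes the matrix glycoprotein thrombospondin 1 (0.90). It was followed by Taz (0.88), Eml6 (0.87) and Pde2a (0.87), whose averaged stroke differences were 0.08, -0.01 and -0.01 and did not pass the test. Il1rn (0.86), Stat3 (0.84), Mmp3 (0.84), Cxcl2 (0.84), Chil3 (0.83) and Zbtb16 (0.83) completed these 10, and Thbs1, Il1rn, Mmp3 and Cxcl2 were in both rankings. These genes were picked from all the other genes for this likeness, so the values are a ranking and no test.

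In the averaged comparison 1.78 percent of all genes were called higher and 1.03 percent lower. Of 27 measured genes of the list of 30 further neutrophil transcripts, 3 rose and 0 fell, with a median difference of 0.02. They were Pglyrp1, a peptidoglycan-binding granule protein (0.44 ± 0.09, adjusted p = 0.0066), Il1r2, the decoy receptor for interleukin-1 (0.41 ± 0.08, adjusted p = 0.0088), and Retnlg, a resistin-like secreted protein (0.34 ± 0.07, adjusted p = 0.011). Within a genotype, Pglyrp1 differed by 0.08 ± 0.12 in mice labelled TNF knockout and rose by 0.80 ± 0.12 in C57BL/6 mice (adjusted p = 0.0016). The difference of those changes was not called (-0.72 ± 0.17, adjusted p = 0.41). Among further genes of this list, named after their values were seen, Ly6g read 2.73 to 3.38 over all arrays and differed by 0.02. Ltf differed by -0.01, Elane by -0.03, Camp by -0.13 and Mpo by 0.08. Csf3r, the receptor for the neutrophil growth factor G-CSF, differed by 0.21 (adjusted p = 0.24). Mmp9, the gelatinase of neutrophil granules, differed by 0.28 ± 0.08 (adjusted p = 0.084). Ly6g, Ltf, Elane, Camp, Mpo and Csf3r thus did not pass the test, while Pglyrp1, Il1r2 and Retnlg of the same list did.

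Of the other monocyte genes 5 of 21 measured rose and 0 fell, against 1.78 and 1.03 percent of all genes. Their median was 0.17. Ms4a6c, a membrane protein of monocytes and macrophages, rose by 0.98 ± 0.11 (adjusted p = 2.3e-05), the related Ms4a4c by 0.62 ± 0.10 (adjusted p = 0.0011) and the transglutaminase gene F13a1 by 0.52 ± 0.08 (adjusted p = 0.00067). Cybb rose by 0.72 ± 0.14 (adjusted p = 0.0069) and Thbs1 by 0.87 ± 0.20 (adjusted p = 0.019). In single genotypes Ms4a6c passed in mice labelled TNF knockout (0.98 ± 0.16, adjusted p = 0.0027) and in C57BL/6 mice (0.98 ± 0.16, adjusted p = 0.0025). Ms4a4c also passed in mice labelled TNF knockout (0.68, adjusted p = 0.029) and in C57BL/6 mice (0.57, adjusted p = 0.045). F13a1 differed by 0.37 in mice labelled TNF knockout (adjusted p = 0.24) and rose by 0.67 in C57BL/6 mice (adjusted p = 0.0039), and the difference of these changes was not called. Of 20 C-type lectin and TREM signalling genes 2 rose and 0 fell (median -0.01), against the same shares of all genes. These were the adaptor gene Fcer1g (0.46 ± 0.07, adjusted p = 0.00028) and Clec4n, which encodes the lectin receptor dectin-2 (0.59 ± 0.13, adjusted p = 0.014). Tyrobp, the adaptor of TREM1, differed by 0.22 ± 0.07 (adjusted p = 0.086).

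Transcripts that recruit these cells included called genes in both directions. Among all genes 1.78 percent were called higher and 1.03 percent lower in the averaged comparison. Of 18 neutrophil recruitment genes 4 rose and 0 fell (median 0.06): the complement receptor gene C5ar1 (1.26 ± 0.12, adjusted p = 1.7e-06), Cxcl2 (0.76 ± 0.15, adjusted p = 0.0082), the cytokine gene Lif (0.37 ± 0.09) and the chemokine-binding receptor gene Ackr1 (0.24 ± 0.06). After stroke Ackr1 was also lower in mice labelled TNF knockout than in C57BL/6 mice (-0.40, adjusted p = 0.030). Of 10 monocyte recruitment genes 4 rose and 1 fell (median 0.06). Ccl12 (3.45 ± 0.14, adjusted p = 4.2e-12), Ccl2 (0.86 ± 0.11) and Ccl7 (0.45 ± 0.07), ligands of CCR2, and the growth factor gene Csf1 (0.29 ± 0.06) rose, and Cx3cl1, a membrane-bound chemokine of neurons, fell by 0.22 (adjusted p = 0.041). Of 17 measured adhesion genes 4 rose and 1 fell (median 0.14). Cd44 (0.69 ± 0.09), the integrin subunit gene Itgb2 (0.56 ± 0.07), Sele (0.41 ± 0.09) and Icam1 (0.39 ± 0.08) rose, and Selplg fell by 0.41. In single genotypes, C5ar1, Ccl12, Ccl2 and Cd44 passed in both. Itgb2 passed in C57BL/6 mice (0.75, adjusted p = 0.00062) and not in mice labelled TNF knockout (0.36, adjusted p = 0.20). Sele passed in mice labelled TNF knockout (0.585, adjusted p = 0.029) and not in C57BL/6 mice (0.23, adjusted p = 0.35). So did Ccl7 (0.66, adjusted p = 0.0018, against 0.25, adjusted p = 0.22). For Itgb2, Sele and Ccl7 the difference of the changes was not called.

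**Figure D4:**
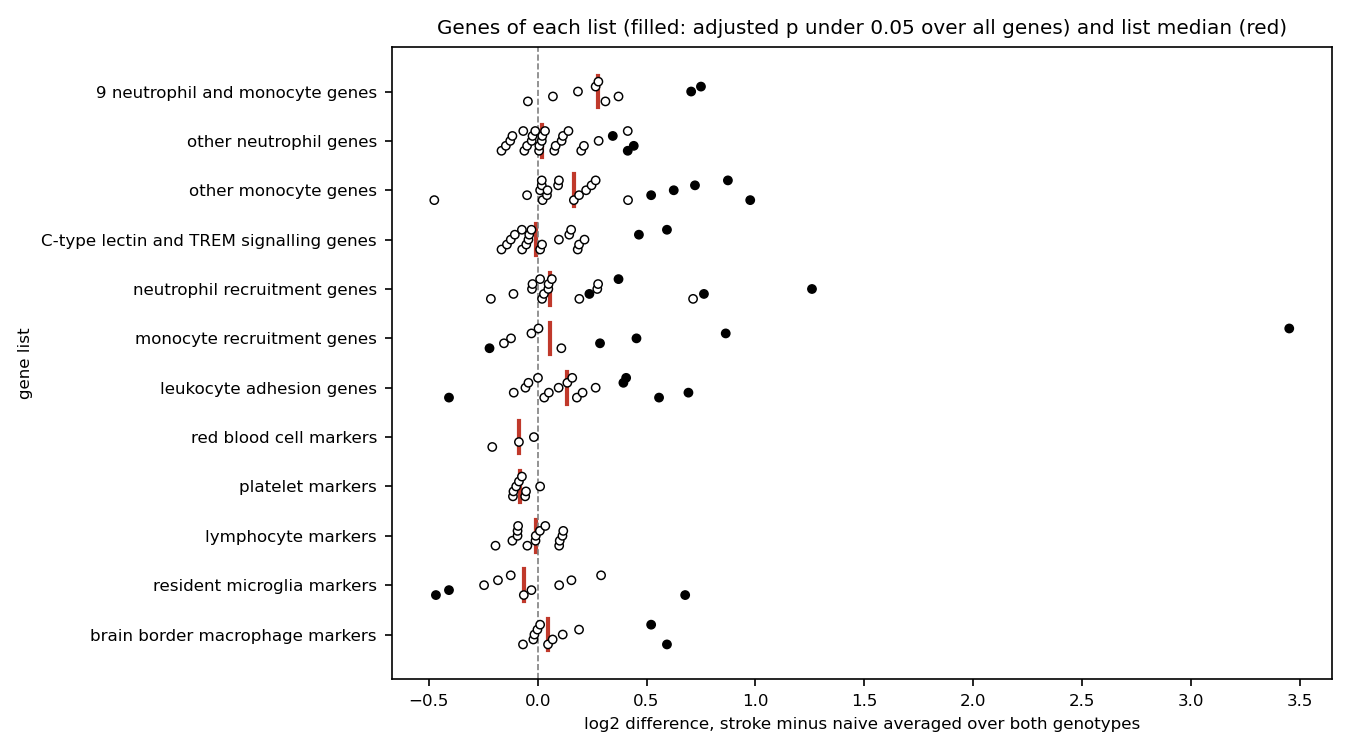
Log2 difference of stroke minus naive, averaged over both genotypes (x axis), for the genes of 12 lists (rows). Red lines are list medians, and filled points are genes with adjusted p under 0.05, of which 2 are among the 9 genes and 3 among the other neutrophil genes.

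Markers of other cells were measured beside the 9 genes. In the averaged comparison 1.78 percent of all genes were called higher and 1.03 percent lower. Red blood cell markers had 0 of 3 measured genes called (9 of the 12 listed, haemoglobin genes among them, had no probe set with a single symbol) and a median of -0.09. Their summed linear values ran from 79.2 to 112 after stroke and 77.8 to 112 in naive arrays labelled TNF knockout, and from 93.0 to 117 after stroke and 92.5 to 132 in naive C57BL/6 arrays. Platelet markers had 0 of 8 called (median -0.08) and lymphocyte markers 0 of 14 (median -0.01). Of 11 resident microglia markers Fcrls rose by 0.68 ± 0.12, while Siglech fell by 0.47 and Selplg, also in the adhesion list, fell by 0.41. Within C57BL/6 mice Fcrls rose by 0.895 (adjusted p = 0.0083) and Siglech differed by -0.475 (adjusted p = 0.037). In mice labelled TNF knockout these were 0.46 (adjusted p = 0.37) and -0.46 (adjusted p = 0.074). Gpr34 fell by 0.49 in mice labelled TNF knockout (adjusted p = 0.046) and differed by 0.125 in C57BL/6 mice. The difference of the Gpr34 changes was not called (adjusted p = 0.43). The summed values of the microglia markers ran from 1148 to 1430 after stroke and 1317 to 1517 in naive arrays labelled TNF knockout. In C57BL/6 arrays they ran from 1340 to 1853 after stroke and 1354 to 1441 in naive mice. Of 11 border macrophage markers, 2 that other lists here also hold, F13a1 and Clec4n, rose. Their summed values ran from 365 to 402 after stroke and 348 to 364 in naive arrays labelled TNF knockout, and from 371 to 419 after stroke and 342 to 367 in naive C57BL/6 arrays. The summed values of the 9 genes themselves ran from 126 to 155 after stroke and 108 to 112 in naive arrays labelled TNF knockout, and from 117 to 208 after stroke and 112 to 125 in naive C57BL/6 arrays. The part of resident and border macrophages in the changes of the 9 genes was not tested.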

How the data were processed

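Total RNA isolated with Trizol was biotin-labelled with the GeneChip WT Terminal Labeling Kit, per the labels' protocols. The authors deposited log2 values per probe set. Per the submitters' processing notes, RMA, GCRMA, GCOS and Partek were among the tools, with no version or order given. The array medians over all probe sets lay between 6.01 and 6.05, as they would after normalisation between arrays, and no header or label records how background was corrected. The table holds 28944 probe sets, of which 21789 had 1 symbol in GEO's platform annotation, 1621 several and 5534 none. The probe set with the highest mean stood for a gene, which gave 19938 genes, with no filter on low values.

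Each gene was fitted over the 16 arrays in limma 3.58.1 (R 4.3.3) with a mean for each of the 4 groups (12 residual and 7.53 prior degrees of freedom). Two-sided p-values had Benjamini-Hochberg adjustment across all genes of a comparison, with a threshold of 0.05. The averaged comparison is the mean of the stroke changes of both genotypes. Summed values add 2 to the power of the log2 value over a list. No 2 arrays were identical. Promoter windows and gene positions came from RefSeq (GRCm38.p6). The fit was tested on simulated data. Alternatives were other normalisations, variance models, array weights, blocks, thresholds and leaving out each array. Figures were drawn with matplotlib 3.10.9.

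The members and lists were chosen with earlier results of these data known. The rule for named genes takes all 9 members, Tnf, up to 4 genes of a list with the smallest p in the averaged comparison, list genes past the threshold in any comparison, and the 10 most similar genes by each likeness. Ly6g, Ltf, Elane, Camp, Mpo and Csf3r, and the tissue markers Snap25 and Mbp, fall outside this rule and were named after their values were seen. In the averaged comparison 2.8 percent of all genes were called. Of measured neuron markers 1 of 11 was called (Tubb3 lower) and of astrocyte markers 2 of 9 (Gfap and Gjb6 higher). For oligodendrocytes it was 0 of 8, for endothelium 1 of 9 (Slc2a1 higher) and for choroid plexus 0 of 9.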

Additional observations from a re-analysis of the deposited data

Results flagged for a closer look

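Of 36 sets of 4 readings, 9 genes in 4 groups, 2 held a reading that stood apart from the other three by Dixon's ratio at the 95 percent level, and about 1 in 20 sets does so by chance. Both were low readings of Trem1 in naive mice: 3.04 in array 2 of those labelled TNF knockout, whose nearest neighbour read 3.50, and 3.36 in array 2 of the C57BL/6 mice, whose nearest neighbour read 3.65. Clec4e in C57BL/6 stroke array 3 (5.44) did not pass this criterion.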

How the results depend on the processing

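The count of 2 genes higher after stroke in the average of both genotypes was 2 or 3 with quantile normalization, median centring, the mean of probe sets, trended and robust variance, array weights, the replicate block and the prefix block. It was 1 (Clec4d) at a threshold of 0.01, and 2 to 4 without 1 array (4 without C57BL/6 stroke array 4). In mice labelled TNF knockout the count of 0 became 1 (Clec4d) when only the groups compared were fitted and was 0 to 1 without 1 array (Cxcr2, adjusted p = 0.049, without C57BL/6 stroke array 3). In C57BL/6 mice it was 0 to 2 without 1 array (Clec4d and Ccr2 without C57BL/6 stroke array 1). The counts between genotypes stayed at 0 under the alternatives run. Among recomputed differences of single genes 0 reversed a call, 59 changed sign or reached 0 without being called in either fit and 11 gained a call. When the dimmest 33.3 percent of genes were left out, 0 of the 9 genes were left to test, so no value could be had. The prefix block could not be fitted for the genotype comparisons after stroke and in naive mice, because KL42 holds every C57BL/6 array and no other. For the difference of the stroke changes it was fitted, and 0 of the 9 genes were called.

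Numbers of all genes called moved more. In C57BL/6 the 334 became 107 (without stroke array 3) to 639 (without stroke array 1), with 139 to 214 without naive C57BL/6 array 1, 2 or 3, naive array 2 labelled TNF knockout, or C57BL/6 stroke array 2 or 4, 516 with trended and robust variance, 559 with the replicate block, 98 with only the groups compared and 76 at 0.01. In mice labelled TNF knockout the 128 became 69 to 145 without 1 array (69 to 72 without stroke array 3 or 4 or naive array 1 or 2 of that label), 212 with array weights, 72 with the prefix block and 54 at 0.01. In the average the 559 became 369 (without naive array 1 or 2 labelled TNF knockout) to 629 without 1 array. It became 768 with trended and robust variance or with array weights, 765 with the replicate block, 332 with the prefix block and 217 at 0.01. Between genotypes after stroke the 87 became 47 (without C57BL/6 stroke array 4) to 120, with 57 and 54 without stroke arrays 1 and 4 labelled TNF knockout, 162 with trended and robust variance, 46 with only the groups compared and 36 at 0.01. In naive mice the 77 became 23 (without C57BL/6 array 3) to 138 (without array 1 labelled TNF knockout), with 27 to 41 without C57BL/6 array 1 or 4 or array 2, 3 or 4 labelled TNF knockout, 141 with the replicate block, 51 with only the groups compared and 20 at 0.01. For the difference of the stroke changes the 0 became 3 without naive C57BL/6 array 2, 2 without naive array 4 or stroke array 2 labelled TNF knockout, 1 without stroke array 1 of that label, 4 with trended and robust variance, and 1 with array weights or the replicate block. The causes were not tested.

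Replicate numbers are shared by the groups. Deviations of same-numbered arrays correlated at -0.07 to 0.34, above 0.1 in 10 of 24 pairs. Differently numbered arrays were not compared, so these values cannot decide whether the numbers pair the samples. The main fit did not treat the numbers as pairs. With the replicate block S100a8 gained a call in the average (0.37, adjusted p = 0.037), which made the count 3.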
